A study of Mus musculus with 3 samples.

Results

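Receptors for the cytokines IL-4, IL-13, IL-10 and IL-6 were followed in macrophages grown from mouse bone marrow (BMDMs) after treatment with lipoproteins purified from *Borrelia burgdorferi* (*Bb*LP), the agent of Lyme disease. The genes were taken by symbol from the feature list of a single-cell RNA-seq count matrix, where all 8 were found once among 32285 features: *Il4ra*, *Il2rg*, *Il13ra1*, *Il13ra2*, *Il10ra*, *Il10rb*, *Il6ra* and *Il6st*. The BMDMs came from female C3H/HeN mice aged 6 to 8 weeks and were differentiated in medium conditioned by L929 cells, a fibroblast line that secretes macrophage growth factor. UI cells received PBS and carry the label Untreated, and the study's methods place their collection with the later time point. LP1 and LP4 cells received 1 µg/mL *Bb*LP for 1 hour and 4 hours. In each condition 3 separately treated wells were combined into a single capture, which left 1 library each. Condition and library therefore cannot be told apart, no test between conditions was possible, and every interval below is a 95% interval that covers counting error only.

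IL-4 signals through a type I receptor, formed by IL-4Rα (*Il4ra*) and the common γ chain (*Il2rg*), and through a type II receptor, formed by IL-4Rα and IL-13Rα1 (*Il13ra1*), which also binds IL-13. IL-13Rα2 (*Il13ra2*) is regarded mainly as a decoy for IL-13. IL-10 binds IL-10R1 (*Il10ra*) and recruits IL-10R2 (*Il10rb*), whereas IL-6 binds the IL-6 receptor α chain (*Il6ra*) and signals through gp130 (*Il6st*); all of these complexes signal through JAK kinases and STAT factors, and in macrophages they set the balance between inflammatory, alternatively activated and deactivated states.

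The 3 libraries kept 6071 UI, 5065 LP1 and 4670 LP4 cells, with medians of 5133, 9343 and 11784 unique molecular identifiers (UMIs) per cell and between 35688939 and 61402275 UMIs in all. Levels are given as counts per 1e+06 UMIs of the library (CPM). Cells of LP4 held more UMIs than cells of UI. UMIs per 100 cells are therefore given for the chains above 10 CPM that were lower in LP4 than in UI by CPM. Whether fewer UMIs per cell came from less RNA or from shallower capture and sequencing cannot be told apart. Between 3 and 9 cell barcodes were shared by any pair of libraries. The summed level of 12 macrophage markers was between 12596 and 13109 CPM, and none of them was at 0. The sum of 6 T and NK cell markers was at most 0.22 CPM, while 6 stromal markers summed to 4.29, 5.85 and 19.7 CPM and 12 neutrophil markers to 582, 481 and 786 CPM in UI, LP1 and LP4. The part of these sums in the receptor levels was not tested. Ratios from a subset of clusters, which leaves out the neutrophil-like and stromal-like cells but also others, are given below.

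Among the 8103 genes that reached 10 CPM in at least 1 library, 4.23% were at least 1.5-fold higher and 2.83% at least 1.5-fold lower in LP1 than in UI. In LP4 against UI these shares were 20.0% and 23.1%, and in LP4 against LP1 they were 16.3% and 18.5%. Of the 8 receptor genes, 7 reached 10 CPM and *Il13ra2* did not. None of the 7 passed 1.5-fold in either direction at 1 hour. At 4 hours *Il4ra* and *Il13ra1* were past 1.5-fold higher and *Il6ra* past 1.5-fold lower, against UI and against LP1 alike, so 2 of 7 were higher and 1 of 7 lower. With 20.0% and 23.1% of all genes past the same limit, these counts say little by themselves. The size of the difference says more for *Il4ra*, which ranked 32 in LP4 against UI. As high or higher than it were 0.395% of the 8103 genes. For *Il13ra1*, which ranked 89, this share was 1.10%. *Il13ra1* was under 10 CPM in both UI and LP1, so it was counted and ranked only through LP4, where it was high. For *Il6ra*, 7.28% of these genes were as low or lower, so its difference stood out less.

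**Figure D1:**
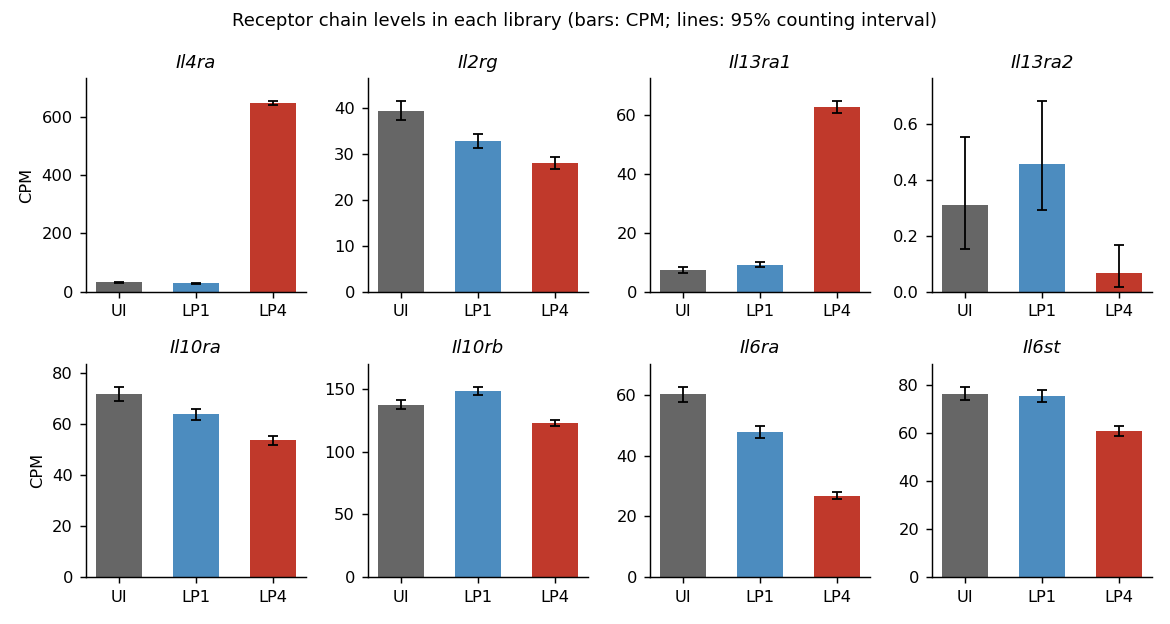
Level of each receptor chain in the UI, LP1 and LP4 libraries, in CPM, on axes that start at 0 and differ between genes. Bars give the level of 1 library each and lines the 95% counting interval; *Il4ra* (31.5, 28.5 and 647 CPM) and *Il13ra1* (7.34, 9.20 and 62.7 CPM) were high in LP4 alone, and *Il6ra* (60.2, 47.8 and 26.8 CPM) was lowest there.

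IL-4Rα, the ligand-binding chain shared by both IL-4 receptors, had the largest difference of the group. *Il4ra* stood at 31.5 CPM in UI (interval 29.7 to 33.4, 1126 UMIs), 28.5 CPM in LP1 (1497 UMIs) and 647 CPM in LP4 (641 to 654, 39741 UMIs). LP4 was thus far above both other libraries, whose intervals overlapped. The level was 20.5-fold higher in LP4 than in UI, a log2 ratio of 4.36 (4.27 to 4.45), and 22.7-fold higher than in LP1. The log2 ratio of LP1 to UI was -0.15 (-0.26 to -0.03).

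In single cells, *Il4ra* UMIs were found in most LP4 cells. The median LP4 cell held 7 UMIs of *Il4ra*, with 1 UMI at the 10th and 18 UMIs at the 90th percentile, whereas the median was 0 in UI and in LP1. In LP4, 278 of 4670 cells had no *Il4ra* UMI, against 5146 of 6071 cells in UI and 3916 of 5065 cells in LP1. Because depth differed, each cell was also thinned at random to 2000 UMIs, which left out 122 UI, 13 LP1 and 45 LP4 cells. On thinned cells the share with an *Il4ra* UMI was 6.34% in UI (exact binomial interval 5.73 to 6.99), 5.52% in LP1 (4.91 to 6.19) and 63.8% in LP4 (62.4 to 65.2), against 15.2%, 22.7% and 94.0% before thinning. The order of UI and LP1 turned over with thinning, and LP4 was highest both ways. RNA released from broken cells can leave UMIs of any gene in a droplet. Of the 28 neutrophil-like LP4 cells, 5 had an *Il4ra* UMI after thinning (17.9%, 6.06 to 36.9), below the share in all LP4 cells; their median depth was 9262 UMIs and that of all thinned LP4 cells 11838 UMIs. Of the 20 stromal-like LP4 cells, 6 had one. Before thinning, an *Il4ra* UMI was found in 15 of 28 neutrophil-like and 15 of 20 stromal-like LP4 cells. In UI these counts were 1 of 32 and 5 of 25. An unnamed cluster of 62 cells with a median of 1054.5 UMIs, 43 of them from LP4, was at 612 CPM of *Il4ra* in LP4 (421 to 859), an interval that held the 647 CPM of the whole library. The neutrophil-like LP4 cells were at 96.0 CPM of *Il4ra* (60.8 to 144), a level that holds their own RNA and free RNA together. No cell type known to lack the gene was found, so the level of free RNA was not measured apart.

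IL-13Rα1, which completes the type II receptor with IL-4Rα, was the second chain that was higher at 4 hours. *Il13ra1* was measured at 7.34 CPM in UI (262 UMIs), 9.20 CPM in LP1 (483 UMIs) and 62.7 CPM in LP4 (60.8 to 64.8, 3853 UMIs). The log2 ratio was 3.10 (2.91 to 3.28) in LP4 against UI, an 8.55-fold difference, and 2.77 (2.63 to 2.91) against LP1. LP1 was slightly above UI, with a log2 ratio of 0.33 (0.11 to 0.55) that did not reach 1.5-fold. The thinned share of cells with a UMI was 1.33% in UI, 1.60% in LP1 and 10.6% in LP4 (9.70 to 11.5), and the unthinned share 4.07%, 8.53% and 42.9%. No *Il13ra1* UMI was seen in the 28 neutrophil-like LP4 cells, thinned or not. The exact upper limit of their share, 12.3%, was above the thinned share of all LP4 cells and below the unthinned share. In CPM their upper limit was 15.4, below the 62.7 of the whole library.

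*Il4ra* and *Il13ra1* lie on different chromosomes, and their upstream sequences are shown because these were the chains that were higher together at 4 hours. *Il4ra* spans chr7:125552120-125579474 and *Il13ra1* spans chrX:36112110-36171259, both on the plus strand of GRCm38 (GENCODE vM21). The RefSeq table on GRCm38.p6 held a promoter window, 250 bases before to 50 after the transcription start, for 6 of the 8 receptor genes; *Il10ra* and *Il10rb* were not among them. The runs below are written 5′ to 3′ and end where the GENCODE gene begins or the RefSeq start is reached, at chr7:125552021-125552119 for *Il4ra* and chrX:36111858-36112107 for *Il13ra1*. Capitals mark GC boxes (GGGCGG on either strand).
Il4ra: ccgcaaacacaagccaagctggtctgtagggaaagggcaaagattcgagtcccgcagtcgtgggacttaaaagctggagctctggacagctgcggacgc
Il13ra1: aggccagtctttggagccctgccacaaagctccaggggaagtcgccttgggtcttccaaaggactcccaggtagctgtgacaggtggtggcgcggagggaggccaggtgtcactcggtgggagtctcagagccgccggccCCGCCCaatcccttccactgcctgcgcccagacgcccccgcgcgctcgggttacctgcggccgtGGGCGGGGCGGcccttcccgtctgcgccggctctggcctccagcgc

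Both strands of each whole window were searched for 4 motifs of factors that act in these pathways: the STAT6 type TTCNNNNGAA, the core GAAANNGAA of the interferon-stimulated response element, NF-κB, and AP-1 (TGANTCA). These matched 6.95%, 8.56%, 4.51% and 7.81% of the 32851 promoter windows of that length. The *Il4ra* window held a single match among them, to NF-κB, which began 21 bases into the transcribed strand, and the *Il13ra1* window held none. In the other windows the only match to these 4 motifs was AP-1 in *Il13ra2*, whose first base lay 193 bases before the start. GC boxes and the octamer type ATGNAAAT, added after the windows were seen, were found in 35.7% and 5.67% of all windows. *Il13ra1* had 3 GC boxes, 2 of which overlap, and *Il4ra* had 1 GC box and 3 octamer-type matches, all inside the GENCODE gene and so not in the run shown. *Il6st*, which was lower in LP4 than in UI by CPM, also had 3 GC boxes. The remaining windows held neither of the added motifs. These are matches of letters, and a window without a match says only that the letters are not in it.

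The common γ chain, the partner of IL-4Rα in the type I receptor, did not share the rise of *Il4ra*. *Il2rg* was at 39.4 CPM in UI (37.3 to 41.5), 32.8 CPM in LP1 (31.2 to 34.4) and 28.0 CPM in LP4 (26.7 to 29.4), with 1405, 1720 and 1720 UMIs. The 3 intervals did not overlap, and UI was highest, but the log2 ratio of -0.49 (-0.59 to -0.39) in LP4 against UI stayed within 1.5-fold. Per 100 cells the order was the other way, with 23.1, 34.0 and 36.8 UMIs. The gene lies at chrX:101264378-101268255 on the minus strand, and an overlapping read-through gene of the annotation, *Gm20489*, was not among the features counted.

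*Il13ra2* was barely detected, with 11 UMIs in 4 cells of UI, 24 UMIs in 14 cells of LP1 and 4 UMIs in 4 cells of LP4. These counts correspond to 0.31, 0.46 and 0.065 CPM, so the decoy chain was near the limit set by 3 counts (0.084, 0.057 and 0.049 CPM). The log2 ratio in LP4 against UI was -2.24 with an interval of -4.35 to -0.49, and the UMIs of UI sat in so few cells that the counting interval understates the error.

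The IL-10 receptor chains differed less between libraries than those of the IL-4 receptors. *Il10ra*, the ligand-binding chain, was at 72.0 CPM in UI (69.2 to 74.8), 64.0 CPM in LP1 (61.8 to 66.2) and 53.7 CPM in LP4 (51.9 to 55.5). The 3 intervals were apart and LP4 was lowest, with a log2 ratio to UI of -0.42 (-0.50 to -0.35). Per 100 cells *Il10ra* was highest in LP4 instead, with 42.3, 66.3 and 70.6 UMIs. *Il10rb*, which IL-10 shares with related cytokines such as IL-22, was at 138 CPM in UI (134 to 142), 149 CPM in LP1 (145 to 152) and 123 CPM in LP4 (120 to 126). LP1 was the highest library for this chain by CPM, although its log2 ratio to UI was only 0.11 (0.06 to 0.16). Per 100 cells *Il10rb* was at 81.0, 154 and 162 UMIs, highest in LP4. The log2 ratio of LP4 to UI was -0.16 (-0.22 to -0.11), and it had the other sign, up to 0.04, under TMM or median-of-ratios scaling. Those scalings moved the median of all genes in LP4 against UI by 0.17 and 0.21 on the log2 scale. On either scaling *Il10ra* kept its direction, at -0.22 or below. An overlapping read-through gene of *Il10rb*, *Gm21970*, was not among the features counted.

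Of the receptor genes above 10 CPM, only the ligand-binding IL-6 receptor chain *Il6ra* was past 1.5-fold lower at 4 hours. It was at 60.2 CPM in UI (57.7 to 62.8), 47.8 CPM in LP1 (46.0 to 49.7) and 26.8 CPM in LP4 (25.6 to 28.2), so each library was clear of the next. LP4 was 2.24-fold lower than UI, a log2 ratio of -1.17 (-1.26 to -1.07), and 1.78-fold lower than LP1, a log2 ratio of -0.83 (-0.92 to -0.74). On the scale of UMIs per 100 cells the values were 35.4, 49.5 and 35.3, so UI and LP4 cells yielded nearly the same number of *Il6ra* UMIs while the total per cell was higher in LP4. On thinned cells the share with an *Il6ra* UMI was 12.3% in UI, 10.2% in LP1 and 5.60% in LP4 (4.95 to 6.30), and before thinning it was 27.0%, 35.0% and 26.6%. Neutrophil-like cells had an *Il6ra* UMI in 5 of 21 UI, 4 of 21 LP1 and 0 of 28 LP4 thinned cells, so they gave no background level for this chain. *Il6st*, which encodes the signalling chain gp130, was at 76.2 CPM in UI (73.4 to 79.1), 75.2 CPM in LP1 (72.9 to 77.6) and 60.6 CPM in LP4 (58.7 to 62.6). UI and LP1 overlapped, and the sign of their log2 ratio of -0.02 turned in 3 of 8 alternative settings. LP4 was lower than UI by a log2 ratio of -0.33 (-0.40 to -0.26). Per 100 cells *Il6st* was at 44.8, 77.9 and 79.7 UMIs, so UI was lowest on that scale.

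The chains of a receptor act in pairs, and the number of cells with UMIs of both was counted on thinned cells. For the type II receptor, *Il4ra* and *Il13ra1* were found together in 0.10% of UI cells (6 of 5949), 0.040% of LP1 cells (2 of 5052) and 6.90% of LP4 cells (319 of 4625, 6.18 to 7.67). For the type I receptor, *Il4ra* and *Il2rg* were found together in 0.42%, 0.28% and 3.52% (3.01 to 4.10) of cells. Both IL-4 receptor pairs were therefore far more frequent in LP4, although *Il2rg* itself was found in 7.82% of UI cells and 5.36% of LP4 cells. The IL-10 receptor pair was found in 3.70% (3.23 to 4.21), 3.21% and 2.46% (2.04 to 2.95) of cells and the IL-6 receptor pair in 1.34% (1.07 to 1.67), 1.46% and 0.76% (0.53 to 1.05), both lowest in LP4.

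Each joint share was close to the product of the shares of its chains. In LP4 the product was 6.75% for *Il4ra* with *Il13ra1* and 3.42% for *Il4ra* with *Il2rg*, within the intervals of the joint shares. The same held in LP4 for the IL-10 pair, with a product of 2.36%, and for the IL-6 pair, with 0.65%. On thinned cells a joint share left its product outside the interval only in UI for *Il6ra* with *Il6st*, where 1.34% of cells had both and the product was 1.71%. Without thinning, the product was below the interval for *Il10ra* with *Il10rb* in all 3 libraries, as in LP4 with 33.7% (32.3 to 35.1) and a product of 32.0%. It was also below for *Il4ra* with *Il2rg* in UI, with 3.33% (2.89 to 3.81) and a product of 2.84%. After thinning, these products lay within the intervals. Unthinned cells differ in depth, and the part of depth in the excess was not tested. In the unthinned counts 41.2% of LP4 cells held UMIs of *Il4ra* and *Il13ra1*, 26.2% of *Il4ra* and *Il2rg*, and 13.6% of *Il6ra* and *Il6st*.

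**Figure D2:**
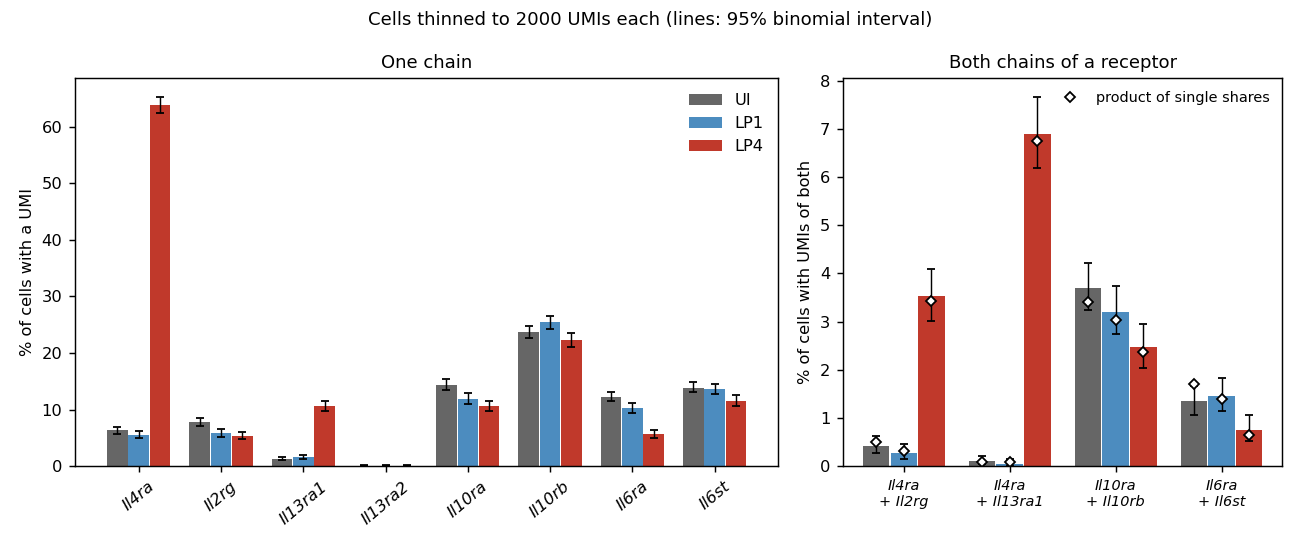
Share of cells with at least 1 UMI of a chain (left) and of both chains of a receptor (right), in percent of cells thinned to 2000 UMIs, for UI, LP1 and LP4. Lines give the 95% exact binomial interval and diamonds the product of the single shares; *Il4ra* reached 63.8% of LP4 cells, and *Il4ra* with *Il13ra1* was found in 6.90% of them.

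To see whether the differences were shared across the culture, cells were clustered without the 8 receptor genes, and 8 clusters, named A to H, were large enough to compare (each library gave them 50 cells or more). Clusters A, B, C and F were macrophage-like and G was cycling-like by their markers. H was led by the MHC class II genes *H2-Eb1*, *H2-Ab1* and *H2-Aa* and by *Cd74*. It is given no name, since 8 macrophage markers were also found in most of its cells. D is given no name, since *Itgax* was among its leading genes beside 8 macrophage markers found in most of its cells. E is given none either, since genes of DNA replication such as *Mcm3* and *Mcm4* led it beside 9 such markers. B held only 96 LP4 cells and F only 143 UI and 106 LP1 cells, against 1136 of LP4, so values in these clusters rest on few cells on 1 side, and whether a cell in F had been a cell of another cluster before treatment was not tested.

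*Il4ra* and *Il13ra1* were higher in LP4 than in UI in all 8 clusters, with intervals above 0 in each. The log2 ratio of *Il4ra* ran from 2.91 (2.40 to 3.47) in cluster H to 4.90 (4.57 to 5.25) in cluster E. That of *Il13ra1* ran from 2.42 (1.81 to 3.09) in cluster G to 4.31 (2.45 to 7.36) in cluster F. *Il6ra* was lower in all 8 clusters, from -2.19 (-3.36 to -1.12) in cluster H to -0.46 (-0.78 to -0.14) in cluster E, again with each interval clear of 0. These directions were kept in 8 of 8 clusters when the libraries were scaled by TMM or by median of ratios.

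The chains differed in where in the culture they were highest. In LP4, *Il4ra* was highest in cluster B (1136 CPM) and F (1116 CPM) and lowest in D (273 CPM), and D was lowest in UI (17.7 CPM) and LP1 (14.7 CPM) too. *Il13ra1* instead had its highest value in D in UI (9.68 CPM), LP1 (14.6 CPM) and LP4 (85.6 CPM). Its interval in D overlapped that in H in every library, as in LP4 with 80.7 to 90.8 and 63.4 to 100. In LP4 the 2 chains that were higher together after treatment were thus not highest in the same cluster. *Il6ra* and *Il10ra* were highest in cluster B in every library, with 122 and 120 CPM in UI, 103 and 106 CPM in LP1, and 49.2 and 70.0 CPM in LP4. The interval of *Il10ra* in B overlapped that in F in every library, as in UI with 111 to 129 and 76.9 to 128. That of *Il6ra* in B overlapped that in F only in LP4, with 34.8 to 67.6 and 36.0 to 43.6. *Il6st* was highest in D in UI and LP4, with 106 and 67.2 CPM, and it spanned the least in LP4, 1.47-fold from 45.9 CPM in H. *Il2rg* spanned 1.51-fold there, from 24.9 CPM in G to 37.6 CPM in B, with intervals of 20.8 to 29.7 and 25.2 to 54.0 that overlapped.

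The remaining chains differed less, and their direction depended on the cluster or on the scaling. *Il2rg* was lower in LP4 than in UI in 7 of 8 clusters, with an interval of -1.51 to -0.45 in F, and 0.09 higher in B with an interval that crossed 0. *Il10ra* was lower in 7 of 8 clusters, down to -0.79 in F, and higher in D by 0.28 (0.08 to 0.47). *Il10rb* was lower in 8 of 8 clusters by CPM but in only 4 of 8 under TMM or median-of-ratios scaling, and *Il6st* was lower in 7 of 8 by CPM and in 5 or 4 of 8 under those scalings. Cluster H had the largest difference of *Il6st*, -1.08 (-1.70 to -0.45), with 88 UI and 75 LP4 cells.

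**Figure D3:**
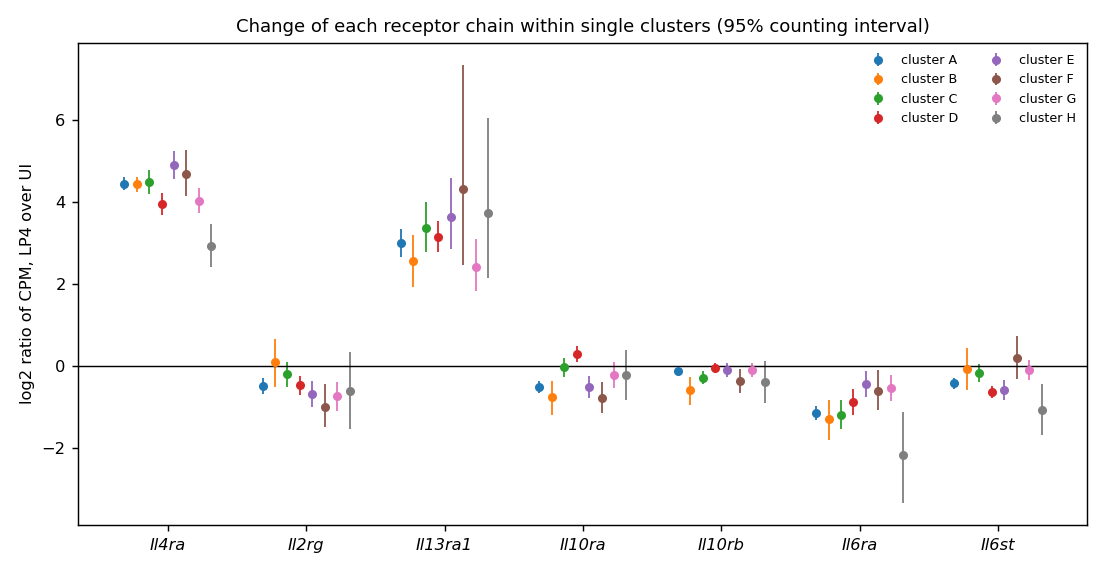
Log2 ratio of CPM in LP4 over UI for each receptor chain within clusters A to H, with the 95% counting interval as a line and 0 as no difference. *Il4ra* and *Il13ra1* lie above 2.4 in every cluster and *Il6ra* below 0 in every cluster, while *Il10ra* lies on both sides of 0; *Il10rb* lies below 0 here, but on both sides under TMM or median-of-ratios scaling.

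Within the LP4 library, the receptor chains were followed along the interferon response of single cells. LP4 cells were ordered by their summed thinned UMIs of 11 interferon-stimulated genes and cut into 4 parts of 1156 or 1157 cells. The parts are ranges of a score and not cell types, since 119, 130 and 86 of the 4625 cells stood exactly at the scores 12, 21 and 33 where the cuts fell. Median depth was between 10998 and 12764 UMIs. From the lowest to the highest part, *Il13ra1* was at 42.0, 55.4, 71.4 and 82.2 CPM and *Il10ra* at 38.6, 50.2, 52.9 and 73.7 CPM. Both were higher in each part than in the part before. The highest part was above the lowest by a log2 ratio of 0.97 (0.83 to 1.11) for *Il13ra1* and 0.93 (0.78 to 1.08) for *Il10ra*.

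*Il4ra* was flat over the first 3 parts, at 597, 599 and 612 CPM, and was at 796 CPM in the highest, a log2 ratio of 0.41 (0.37 to 0.46). *Il2rg*, *Il10rb*, *Il6ra* and *Il6st* had intervals of the log2 ratio that included 0, with values of 0.13, 0.01, -0.19 and -0.14. The order was repeated within each of the 4 clusters with at least 500 LP4 cells (A, C, D and F), a check added after the values over all LP4 cells were seen. *Il13ra1* was higher in the highest part in 4 of 4 clusters, by 0.62 to 0.93, and *Il10ra* in 4 of 4, by 0.68 to 0.90. *Il4ra* was higher in 3 of 4, by up to 0.56 in C, and was at -0.03 in F. In F the interval was also clear of 0 for *Il2rg*, at 0.64 (0.15 to 1.14), and for *Il6ra*, at -0.55 (-0.96 to -0.15). UI cells were ordered in the same way, where every cell of the lowest part had a score of 0. There the highest part was above the lowest by a log2 ratio of 0.29 (0.13 to 0.45) for *Il10ra*, 0.42 (0.25 to 0.60) for *Il6ra* and 0.25 (0.01 to 0.50) for *Il4ra*. *Il6st* was lower, at -0.18 (-0.34 to -0.02). *Il13ra1* was at -0.05 with an interval that included 0, as for *Il2rg* and *Il10rb*. Each order used cells of 1 library, so the values describe that library.

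**Figure D4:**
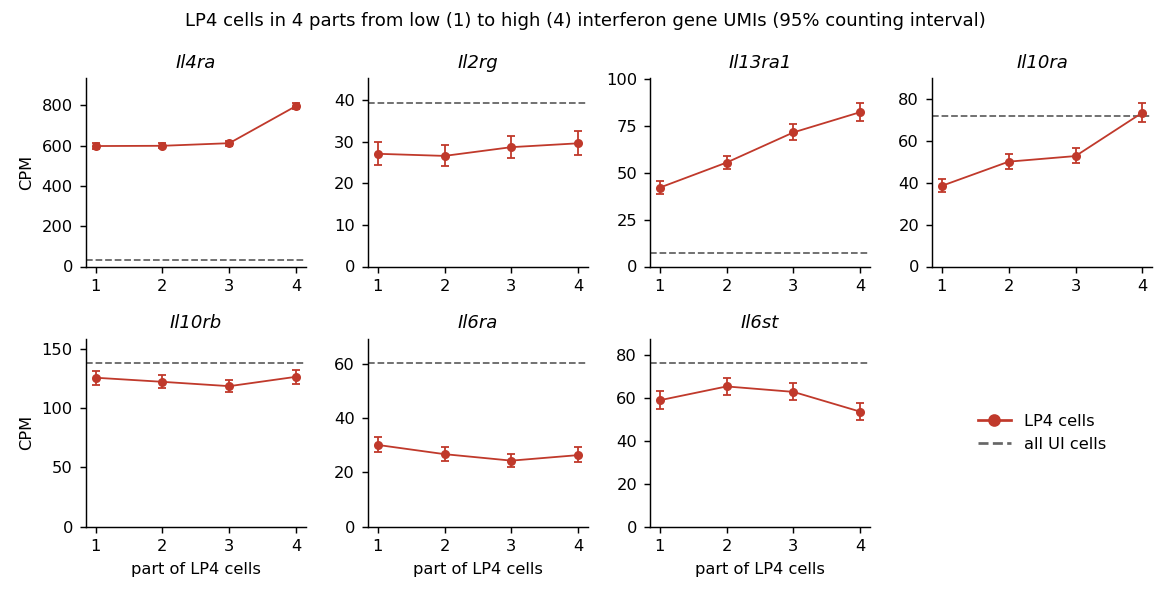
Level of 7 receptor chains (CPM, axes from 0 that differ between genes) in 4 parts of the LP4 cells, ordered from low (1) to high (4) summed UMIs of 11 interferon-stimulated genes; lines at the points give the 95% counting interval and the dashed line the level in all UI cells. *Il13ra1* and *Il10ra* climb over the 4 parts, from 42.0 to 82.2 and from 38.6 to 73.7 CPM, and *Il4ra* is higher in the last part, at 796 CPM.

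Of the ligands, *Il10* was measured above 10 CPM in every library and *Il6* only in LP4. *Il6* was at 1.09, 1.45 and 24.7 CPM in UI, LP1 and LP4, a log2 ratio of 4.50 in LP4 against UI, so it was higher where *Il6ra* was lower. *Il10* was at 100.3, 105 and 141 CPM, a log2 ratio of 0.49 (0.43 to 0.54) that passed 1.5-fold only under TMM or median-of-ratios scaling. *Il4* had 7, 2 and 4 UMIs, and *Il13* had 0 UMIs in every library, with exact upper limits of 0.103, 0.070 and 0.060 CPM.

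Chains that share a partner with these receptors were mostly low, with 10 of 14 under 10 CPM. Among the other 4, *Il15ra*, the α chain of the IL-15 receptor, was at 7.43, 9.03 and 89.8 CPM, a log2 ratio of 3.60 in LP4 against UI. *Il21r*, whose product pairs with the common γ chain, was at 8.35, 7.05 and 51.8 CPM, a log2 ratio of 2.63. *Il7r* and *Il11ra1* stayed within 1.5-fold, at 0.12 and -0.18. *Il15ra* and *Il21r* were under 10 CPM in both UI and LP1, so they passed the limit only through LP4, where they were high. The median of these 4, 1.38, was therefore not compared with that of all genes.

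Of 8 kinases and STATs above 10 CPM, 6 were past 1.5-fold higher in LP4 than in UI and none lower, where 20.0% and 23.1% of all genes were, with a median log2 ratio of 1.54, and none passed 1.5-fold in LP1. *Stat5a* was at 17.8, 22.8 and 87.5 CPM (log2 ratio 2.30) and *Jak2*, a kinase used by many cytokine receptors, at 117, 126 and 470 CPM (2.01). *Stat3*, the STAT through which IL-10 and IL-6 act, was at 69.5, 69.6 and 252 CPM. *Stat6*, which carries the IL-4 and IL-13 signal, was not among the higher genes, at 62.7, 61.6 and 48.1 CPM with a log2 ratio of -0.38 (-0.46 to -0.30).

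Of 7 adaptors and feedback regulators above 10 CPM, 4 were past 1.5-fold higher and 2 lower in LP4 than in UI, against the same 20.0% and 23.1% of all genes. *Socs1*, a feedback inhibitor of JAK kinases, was at 1.68, 3.85 and 90.7 CPM (log2 ratio 5.75). *Cish* was at 4.17, 5.35 and 61.1 CPM (3.87) and *Socs3*, which binds gp130, at 52.3, 98.9 and 648 CPM (3.63). *Socs1* and *Socs3* were also the genes of this list past 1.5-fold higher in LP1, at log2 ratios of 1.20 and 0.92, against 4.23% of all genes. *Socs1* and *Cish* were under 10 CPM in both UI and LP1, so they passed the limit only through LP4, where they were high. The lower genes were *Ptpn6*, encoding the phosphatase SHP-1, at 106, 91.1 and 48.0 CPM (-1.14), and *Irs2*, an adaptor of the IL-4 receptor, at 34.0, 33.5 and 17.1 CPM (-0.99). The proteases *Adam10* and *Adam17*, which release the IL-6 receptor from the cell surface, stayed within 1.5-fold at 0.33 and -0.14.

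Of 15 genes commonly used as marks of IL-4 or IL-13 action, 10 stayed under 10 CPM in every library. *Arg1* had 14, 12 and 35 UMIs in UI, LP1 and LP4, *Retnla* 0, 0 and 9, and *Chil3* 20, 64 and 60. *Ccl17* had 0, 4 and 78 UMIs, *Pdcd1lg2* 25, 39 and 77, and *Cdh1* 7, 26 and 34. *Ccl22* had 10, 78 and 35 UMIs, *Clec10a* 109, 163 and 184, *Mgl2* 15, 21 and 18, and *Alox15* 0, 0 and 1. By CPM, *Ccl17* went from 0 in UI to 1.27 in LP4, *Pdcd1lg2* from 0.70 to 1.25 and *Mgl2* from 0.42 to 0.29. Of the 5 genes above 10 CPM, none was past 1.5-fold higher in LP4 than in UI and *Klf4* was lower. These compare with 20.0% and 23.1% of all genes. *Klf4* was at 56.6, 43.0 and 12.5 CPM (log2 ratio -2.18). *Mrc1*, the mannose receptor, was at 148, 141 and 206 CPM, a log2 ratio of 0.48 that passed 1.5-fold under TMM or median-of-ratios scaling, and *Irf4* was at 11.8, 14.6 and 9.09 CPM (-0.37). The median of the 5 was 0.06.

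Of 7 IL-10 target genes, 5 were past 1.5-fold higher in LP4 than in UI and none lower, against 20.0% and 23.1% of all genes, with a median log2 ratio of 1.58. *Socs3*, which also stands among the feedback genes, was given above. *Sbno2*, a corepressor of NF-κB genes, was at 49.6, 38.4 and 206 CPM (2.06) and *Il1rn*, the antagonist of the IL-1 receptor, at 281, 266 and 1034 CPM (1.88). Of the 11 interferon-stimulated genes in the files, 10 were past 1.5-fold higher in LP4 than in UI, against 20.0% of all genes, with a median log2 ratio of 3.66, and none passed 1.5-fold in LP1. The 3 with the largest ratios were *Ifit1* at 5.67, *Cmpk2* at 5.54 and *Cxcl10* at 5.52.

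**Figure D5:**
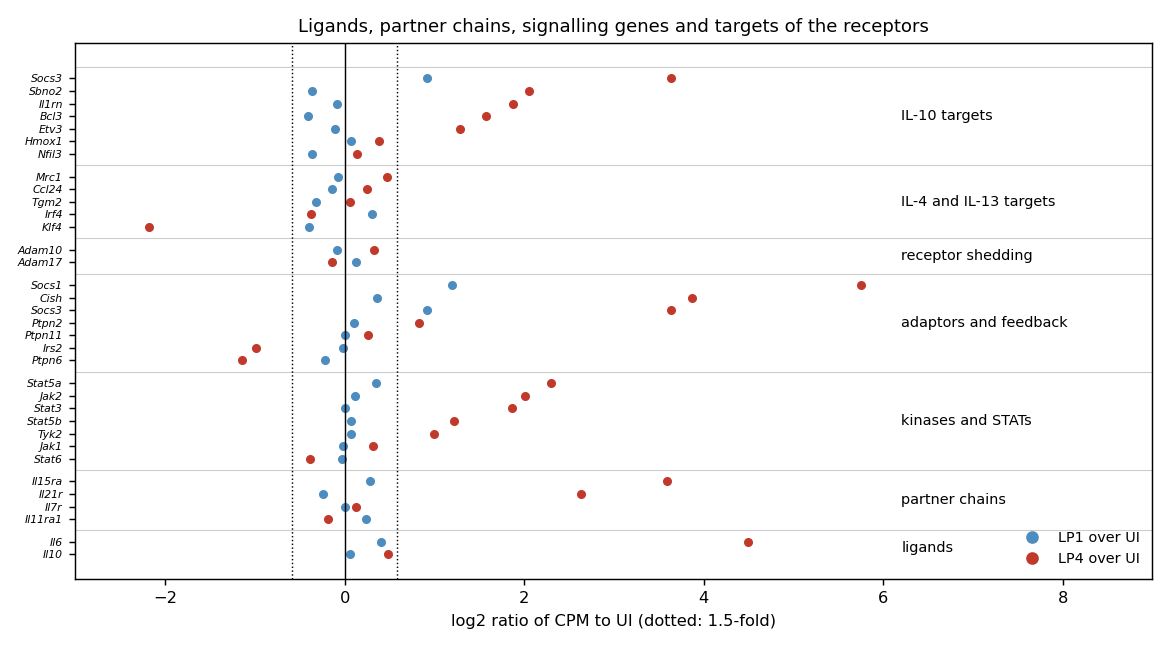
Log2 ratio of CPM to UI for ligands, partner chains, kinases and STATs, adaptors and feedback genes, receptor shedding proteases and target genes that reached 10 CPM; blue points are LP1 over UI, red points LP4 over UI, and dotted lines mark 1.5-fold. Most of the blue points lie between the dotted lines, and the red points reach 5.75 for *Socs1* and -2.18 for *Klf4*.

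The genes whose levels followed each chain most closely were found by Pearson's r over 24 points, the 8 clusters in each of the 3 libraries, among genes of at least 50 CPM. The points share libraries, so r largely follows the LP4 difference where that is large. *Il4ra* was closest to *Plagl2* (r = 0.989), *Marcks* (0.988) and *Stat2* (0.984). *Marcks*, which encodes an actin-binding substrate of protein kinase C, was at 311, 314 and 1128 CPM. *Il13ra1* was closest to *Nck1* (0.963), *Dram2* (0.961) and *Tmem170b* (0.959), and *Il4ra* with *Il13ra1* had r = 0.860.

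With each library centred on its own mean, which leaves only the differences between clusters, *Il4ra* and *Il13ra1* had r = -0.27. *Marcks* was then closest to *Il4ra* (0.929). The genes closest to *Il6ra* over all points were *Frmd4b* (0.928), *Grk2* (0.927) and the macrophage transcription factor *Maf* (0.923), of which *Frmd4b* and *Maf* were also among the closest within libraries. For *Il10ra* the closest over all points were *Fcgrt* (0.877), *Serpinb8* (0.869) and *Map1lc3b* (0.868), and within libraries *Ifi47* (0.938), *Irgm1* (0.933) and *Gch1* (0.931), the first pair of which are interferon-inducible GTPases. *Il10rb* was closest to *Ankrd28* (0.861), *Itga5* (0.856) and *Mtmr10* (0.844), *Il6st* to *Pi4ka* (0.915), *Arhgap25* (0.900) and *Mindy1* (0.874), and *Il2rg* to *Atp5j* (0.798), *Tecr* (0.779) and *Srebf2* (0.763).

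When only clusters A, B, C, E, F and G were kept, which held between 80.8% and 82.5% of the cells, the log2 ratio in LP4 against UI was between 3.05 and 3.30 for *Il13ra1* over this and 7 other settings, between 4.33 and 4.56 for *Il4ra*, and between -1.19 and -0.96 for *Il6ra*. In those clusters alone the log2 ratio was 4.47 for *Il4ra*, 3.05 for *Il13ra1* and -1.16 for *Il6ra*. It was -0.50 for *Il2rg*, -0.17 for *Il10rb* and -0.23 for *Il6st*. *Il10ra* was most negative there, at -0.57. Clusters D and H and the smaller unnamed cluster were left out together with the neutrophil-like and stromal-like cells.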

How the data were processed

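The deposited files hold raw UMI counts per gene and cell barcode, which the authors made with Cell Ranger 7.1.0 on mm10 (version and build per the labels). Whether intronic reads were counted is not given in the sources used here. The counts come from 3′ ends, so levels were not compared between genes. Cells were kept with at least 500 UMIs and 500 genes and at most 5% mitochondrial UMIs, which left 15806 of 16281 barcodes. No doublet caller was run; removing the 5% of cells with the most UMIs served as an alternative.

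Counts were summed per library and given as CPM. With 1 library per condition there is no replicate, no test and no p-value. Levels have exact Poisson intervals, ratios exact conditional binomial intervals and shares exact binomial intervals, which cover counting error only. In ratios, a count of 0 was read as up to 3 counts. Genes were called past 1.5-fold among those of at least 10 CPM in 1 library. Counts for LP4 against UI were also drawn from a Poisson model of the library totals. Over 7526 genes, the ratio intervals held the true value for 95.0%. Since the intervals assume the same model, this checks their computation only. It leaves out errors such as UMIs gathered in few cells.

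Cells were clustered with the Leiden method (leidenalg 0.10.2, resolution 0.5, 2000 variable genes, 30 components), leaving out the receptor genes. TMM factors came from edgeR 4.0.16. Named were all 8 receptor genes and the 3 genes of at least 50 CPM most correlated with each chain. From each list came the 3 genes of at least 10 CPM with the largest LP4 against UI ratio in either direction. *Il4*, *Il13*, *Il7r*, *Ptpn6*, *Irs2*, *Stat3*, *Stat6* and the IL-4 and IL-13 marks under 10 CPM were added after their values were seen. The receptor genes, lists and motifs were chosen with earlier results of these data known. A gene of the kinase and STAT list, counted in its totals, is not reported here by name. *Mx1* of the interferon list was not matched in the features.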

Additional observations from a re-analysis of the deposited data

Results flagged for a closer look

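*Il10ra* was flagged because clusters of the same libraries went in opposite directions, with counting intervals on different sides of 0. In LP4 against UI the log2 ratio was 0.28 (0.08 to 0.47) in the unnamed cluster D and -0.79 (-1.16 to -0.40) in the macrophage-like cluster F. In LP4 against LP1 it was 0.39 in D and -0.68 in F, and in LP1 against UI it was 0.34 in the cycling-like cluster G and -0.37 in cluster E. The difference between clusters was not tested, since each cluster holds 1 library per condition. F held 143 UI and 1136 LP4 cells, so that few UI cells carry its ratio. With the cells divided into 5 or 10 clusters in place of 8, the LP4 against UI ratios of *Il10ra* ran from -0.93 to 0.32 and from -0.95 to 0.47, with 1 cluster clear above 0 each time.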

How the results depend on the processing

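Each condition was 1 library, so spread between cultures is unknown and leaving out a replicate was not possible. No paired analysis was possible because every condition has 1 library and no test was run. The counts of receptor genes past 1.5-fold were recomputed under 9 alternatives, and 53 of 54 values stayed within 1.5 times; at 2-fold in place of 1.5-fold, 0 genes were lower in LP4 than in LP1, since *Il6ra* was 1.78-fold lower there. Of 168 ratios, 36 moved outside their counting interval, 30 of them under TMM or median-of-ratios scaling, and 2 chains changed sign: *Il10rb* in LP4 against UI and *Il6st* in LP1 against UI. Shares of cells followed the depth chosen for thinning, as 74 of 96 shares of cells with a UMI moved. Under the other resolutions 14 of 42 counts of clusters moved. When libraries were centred separately, 5 of 7 sets of most similar genes kept at most 1 of their 3 genes. The sets of *Il6ra* and *Il10rb* changed by 1 gene each.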
